A study of Danio rerio with 23 samples.

Results

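Cell cycle and DNA replication genes were examined in bulk RNA-seq libraries of zebrafish retinae collected after light-induced retinal damage (LIRD) and from control retinae (CTRL). The 40 genes were chosen by name: 19 genes of the S phase, 5 cyclin and cyclin-dependent kinase (CDK) genes that act in G1 and at the entry into S phase, and 16 genes of mitosis. Symbols were matched to rows of the count table without regard to case, and birc5a was matched as BIRC5. The names mcm6 and rrm2 each stood for 2 zebrafish genes, so that 42 of the 25281 rows of the table were members, 21 of them of the S phase, 5 of the G1 and S group and 16 mitotic. All 42 rows passed the filter on low counts, as did 22503 rows in all.

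Cells copy their genome in S phase, after the MCM helicase has been loaded onto origins in G1, and separate the copies in mitosis under the control of cyclin B with Cdk1, Polo and Aurora kinases and the anaphase-promoting complex. Transcripts of these genes accumulate in dividing cells, the replication genes from late G1 and the mitotic genes in G2 and M, and they are low in postmitotic neurons. The growing zebrafish retina adds cells from stem cells and progenitors of the ciliary marginal zone, and Muller glia can re-enter the cell cycle after injury and produce progenitors. In bulk RNA, fewer dividing cells and less transcript in each dividing cell cannot be told apart.

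The LIRD group was exposed to intense light and the CTRL group was not, and no drug was given to either group. The labels describe adult fish, 15000 lux for 24 h with dissection directly afterwards, and controls under standard light. The study's methods describe instead larvae at 4 days after fertilization, 50000 lux for 3.5 h and recovery in the dark for 48 h, from fish of the Tg(fli:gal4;UAS:mCherry) line and of the TU wild type, without stating the line behind each library. Groups of 50 embryos were illuminated together according to those methods. The files do not settle which account applies. The labels list 23 samples, of which 8 of 11 LIRD and 9 of 12 CTRL samples had a column of counts. The other 6 were not analysed here. The study's methods state that outliers in a principal component analysis were left out if they did not group with their replicates. Whether the samples without counts were left out for that reason is not stated. If so, the spread within each group, and the p-values that rest on it, come from libraries kept because they grouped with their replicates. Libraries are named by condition and the replicate number of their label, so that LIRD 4 is replicate 4 of the LIRD group. Each label names a biological replicate, and the study describes each library as made from a pool of 50 larval retinae. Nothing in the labels says that the replicates came from separate clutches, and p-values measure the spread between these libraries.

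Total counts per library lay between 97506021 and 150347385 in LIRD and between 70932504 and 144932681 in CTRL. Markers of rods, cones, Muller glia and retinal neurons were present in every library, together with markers of lens, skin, muscle, liver and blood. LIRD 5 with LIRD 11, and CTRL 3 with CTRL 11, were far closer to each other than other pairs were (chi-square over its degrees of freedom of 11.97 and 14.98, against 73.9 for the next closest pair), but differed by more than sampling noise and were kept as separate libraries. Their labels give them separate biological replicate numbers. Column names index replicates 1 and 2 of both conditions alternately from 7 to 10, and the remaining libraries condition by condition up to 29. These sets are called the first library series (2 LIRD and 2 CTRL libraries) and the second (6 LIRD and 7 CTRL libraries). Whether the index marks a separate preparation is not given in the sources used here.

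No cell cycle member passed the test between LIRD and CTRL retinae (edgeR quasi-likelihood test, fold change over 1.5 in either direction and Benjamini-Hochberg FDR under 0.05), a rule that called 9 of 22503 genes, 0.04% of those tested. The member log2 fold changes lay between -0.37 for mcm6, a subunit of the replicative helicase, and 0.51 for birc5a, which encodes the survivin of the chromosomal passenger complex. Helicase genes were mostly below 0 (7 of the 11 licensing and helicase rows, median -0.19), and below 0 in 8 rows (median -0.32) when libraries were scaled by their totals alone. Of the mitotic rows 14 of 16 were above 0 (median 0.11), but 8 of 16 with totals alone. The median over all genes tested was 0.02, or -0.06 with totals alone. None of these shifts met the threshold for any member. The LIRD libraries differed widely from each other, and 38 of 42 members exceeded the CTRL median in LIRD 4, against 0 in LIRD 10. The controls also differed in this count, with 39 members in CTRL 10 and 0 in CTRL 4 and CTRL 5.

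Of the 42 members, 2 had an unadjusted p under 0.05 (4.76%), both lower in LIRD, against 7.64% of all genes tested, 4.9% higher and 2.74% lower. DESeq2 also called 0 of 42 members, against 0.315% of the genes it tested, and gave 2 with an unadjusted p under 0.05, against 8.36% of its genes. The log2 value was above 0 for 30 members, against 53.8% of all genes tested, and below 0 for 12 (28.6%, against 46.2%), but 22 were below 0 with replicate number as a block and 26 when libraries were scaled by their totals alone. No member had LIRD values wholly above the CTRL values, as 0.0622% of all genes did, or wholly below them, as 0.00889% did. The 95% interval of the log2 fold change crossed 0 for 40 members. It lay within a 1.5-fold change in either direction for 22 members, and extended past 1.5-fold upward for 15 and downward for 5. The count of members with an unadjusted p under 0.05 was 5, all lower, without LIRD 4 (5.8% of all genes), and 4, none of them lower, without LIRD 10 (2929 of all 22545 genes). It was 0 without LIRD 6 (11.3% of all genes) and 0 when the near-identical libraries were added up (6.54%).

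**Figure D1:**
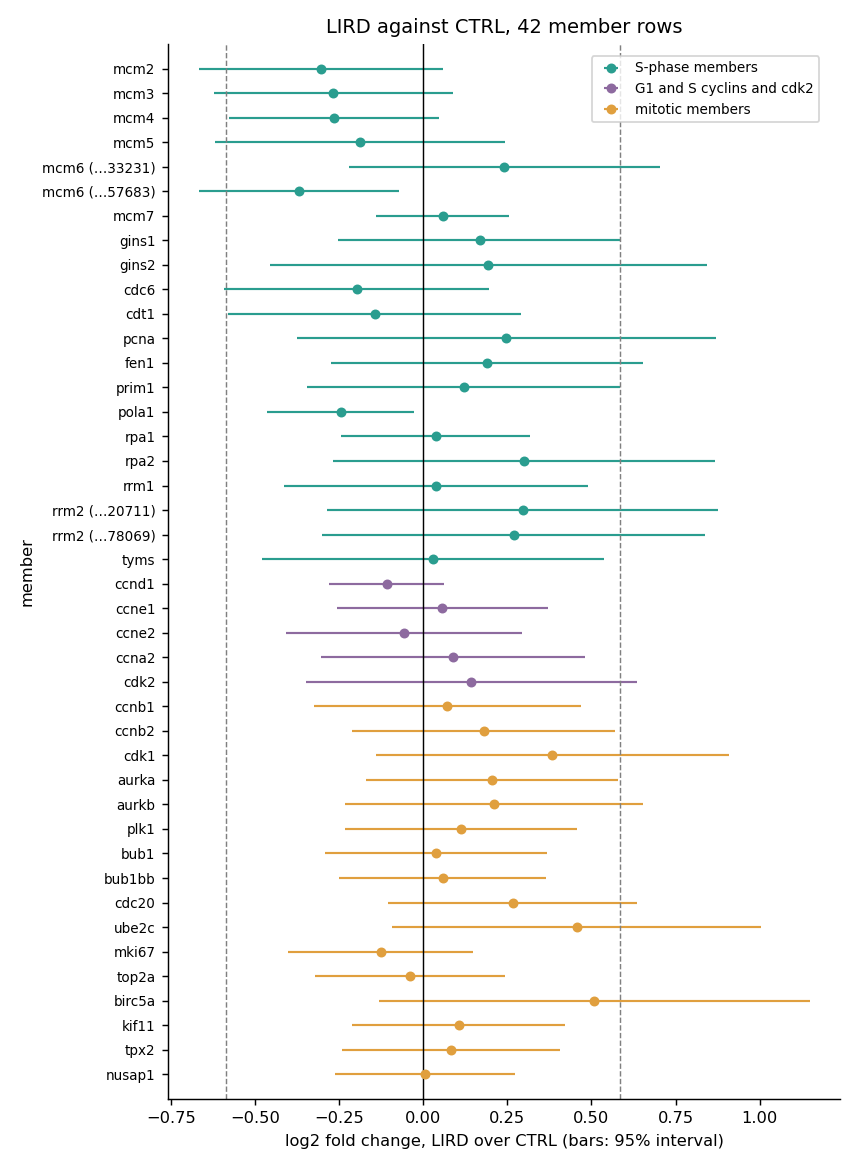
The log2 fold change of each of the 42 member rows, LIRD over CTRL, is plotted as a point with its 95% interval as a bar, in the order of the members' roles, with dashed lines at a 1.5-fold change either way. The bars of 40 members cross 0, those of mcm6 (ENSDARG00000057683) and pola1 lie below 0, and the widest bars belong to birc5a, gins2 and pcna.

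The genes that license origins and unwind DNA include the subunits mcm2 to mcm7 of the helicase, the GINS subunits gins1 and gins2 that join it at the fork, and the loading factors cdc6 and cdt1. Helicase subunit mcm6 (ENSDARG00000057683) had a lowest, median and highest level of 34.0, 46.0 and 66.7 CPM (counts scaled to the size of the library) in LIRD libraries, against 34.6, 66.5 and 72.0 CPM in CTRL libraries. The groups overlapped, with 7 of 8 LIRD libraries below the CTRL median, LIRD 6 lowest and LIRD 4 highest, and with CTRL 5 close to the lowest LIRD library. Its log2 fold change was -0.37 with a standard error (SE) of 0.15 (unadjusted p = 0.0247, FDR 0.580 by edgeR), the smallest p of the members.

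The subunits mcm2 and mcm4 were placed in the same way. Levels of mcm2 were 41.98, 59.3 and 111.2 CPM in LIRD libraries, against 39.8, 85.1 and 101.7 CPM in CTRL libraries (lowest, median, highest). The LIRD values overlapped the CTRL range, 7 of 8 were below the CTRL median, and LIRD 4 stood above every CTRL library, with a log2 fold change of -0.30 (SE 0.19, FDR 0.697 by edgeR). Levels of mcm4 were 47.7, 63.4 and 99.7 CPM in LIRD libraries and 42.6, 84.9 and 94.99 CPM in CTRL libraries, with a log2 fold change of -0.27 (SE 0.16, FDR 0.697 by edgeR). For mcm4 too, LIRD 4 was the only LIRD library above the CTRL median.

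Of the other helicase genes, mcm3 and cdc6 also had 7 of 8 LIRD libraries below the CTRL median, with log2 fold changes of -0.27 and -0.20. The values were -0.19 for mcm5 and -0.14 for cdt1, whose protein loads the helicase together with Cdc6, and 0.06 for mcm7. Both GINS genes were above 0, at 0.17 for gins1 and 0.19 for gins2. In these the LIRD libraries lay on either side of the controls: for gins1, 3 LIRD libraries were above and 4 below the whole CTRL range of 4.34 to 8.46 CPM. The remaining row named mcm6 (ENSDARG00000033231) was barely expressed, at 0.242 to 0.800 CPM in LIRD and 0.241 to 0.461 CPM in CTRL libraries.

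The replication fork genes encode the sliding clamp (pcna), the flap endonuclease that trims Okazaki fragments (fen1), primase and the catalytic subunit of DNA polymerase alpha (prim1, pola1) and subunits of the single-strand binding protein RPA (rpa1, rpa2). The study used PCNA protein, by Western blot and staining, and pcna mRNA, by RT-qPCR scaled to ube2a, as markers of proliferation. It reported more PCNA protein after LIRD, and by staining more Muller glia with PCNA in the central retina. By RT-qPCR it reported less pcna mRNA in larvae given N-acetylcysteine after LIRD than after LIRD alone. Those measures differ from the counts here and are not compared with them. In the 8 LIRD libraries pcna stood at 379.1 CPM in replicate 1, 290.6 in 2, 353.3 in 4, 94.9 in 5, 86.5 in 6, 278.0 in 9, 94.2 in 10 and 95.9 in 11. In the 9 CTRL libraries it stood at 226.6 CPM in replicate 1, 173.3 in 2, 178.1 in 3, 123.2 in 4, 92.0 in 5, 167.3 in 6, 193.1 in 8, 261.2 in 10 and 171.3 in 11. LIRD 1, 2, 4 and 9 thus exceeded every control and LIRD 5, 6, 10 and 11 lay beside the lowest control, CTRL 5. Among these low libraries, LIRD 5 and LIRD 11 are the near-identical pair. No LIRD library had a pcna level between 95.9 and 278.0 CPM, a span that held 8 of the 9 controls. The mean was 209.1 ± 128.3 CPM in LIRD and 176.2 ± 50.1 CPM in CTRL (SD, n = 8 and 9), and the fold change of 1.19 had an interval of 0.771 to 1.83 (log2 0.25, SE 0.32, FDR 0.785 by edgeR). The log2 value of pcna was 0.07 without LIRD 1, 0.10 without LIRD 4, 0.04 by limma-voom and -0.03 with replicate number as a block.

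The pattern of fen1 was similar, with 4 LIRD libraries above and 4 below the whole CTRL range of 15.9 to 32.5 CPM and a log2 fold change of 0.19. For rpa2, 3 LIRD libraries were above and 3 below the CTRL range, and the log2 fold change was 0.30, while it was 0.12 for prim1 and 0.04 for rpa1. DNA polymerase alpha differed from them. Its gene pola1 was measured at 33.0, 39.3 and 47.98 CPM in LIRD libraries, against 29.8, 48.8 and 57.2 CPM in CTRL libraries. All 8 LIRD libraries lay below the CTRL median and inside the CTRL range, whose lowest member was again CTRL 5. The log2 fold change of pola1 was -0.25 (SE 0.11, unadjusted p = 0.0405, FDR 0.632 by edgeR).

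**Figure D2:**
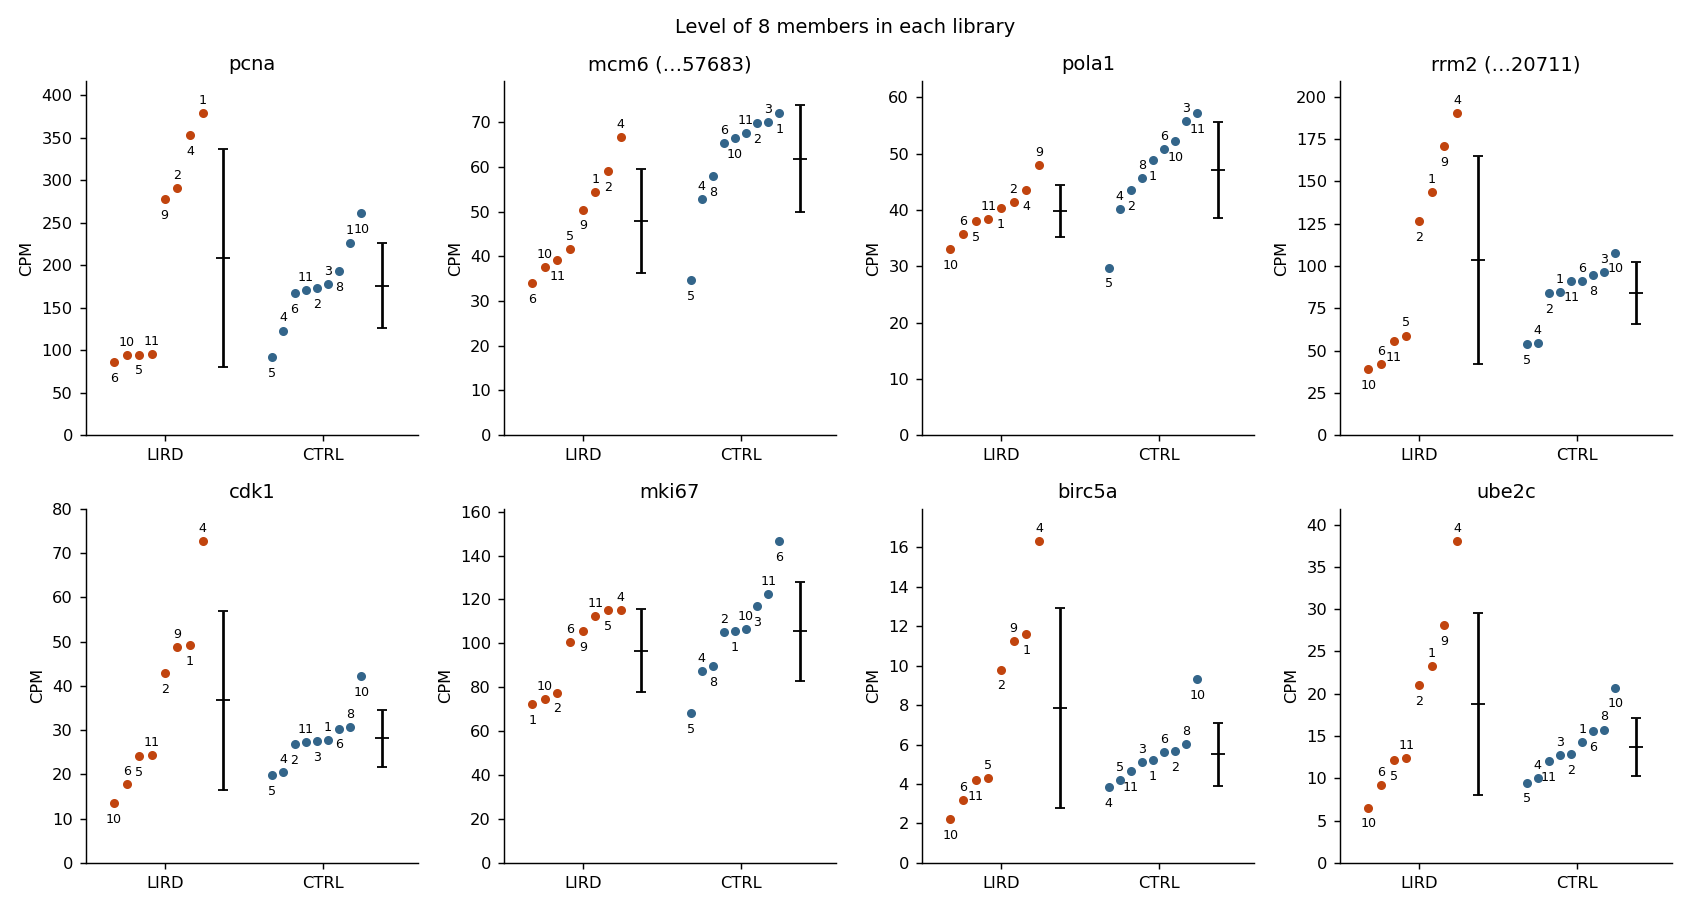
The level of 8 members in CPM is plotted for each of the 8 LIRD libraries (left, orange) and 9 CTRL libraries (right, blue), numbered by replicate and ordered by level, with the mean and SD as bars. For pcna and rrm2 the LIRD libraries lie on either side of most controls, and for pola1 all 8 LIRD libraries lie below the CTRL median of 48.8 CPM.

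Nucleotides for replication are supplied by ribonucleotide reductase (rrm1, rrm2) and thymidylate synthase (tyms). The row rrm2 (ENSDARG00000020711) had 38.9, 92.8 and 190.3 CPM in LIRD libraries, against 54.1, 90.9 and 107.98 CPM in CTRL libraries. Of the LIRD libraries, 4 were above and 2 below the CTRL range, with LIRD 4 highest and LIRD 10 lowest. Its log2 fold change was 0.30 (SE 0.30, FDR 0.734 by edgeR), and 0.11 without LIRD 4, 0.08 by limma-voom and -0.01 with replicate number as a block. The row rrm2 (ENSDARG00000078069) had 10.0, 23.1 and 35.9 CPM in LIRD libraries, against 8.10, 21.8 and 33.0 CPM in CTRL libraries, and a log2 fold change of 0.27 (SE 0.29, FDR 0.751 by edgeR). The large subunit rrm1 and tyms had log2 fold changes of 0.04 and 0.03, with intervals of -0.41 to 0.49 and -0.48 to 0.54.

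Cyclin D1 (ccnd1) couples growth signals to G1 progression, cyclins E and A with Cdk2 drive entry into and passage through S phase, and zebrafish retinal progenitors express ccnd1. Its levels were 115.7, 142.3 and 167.8 CPM in LIRD libraries, against 129.3, 151.5 and 175.6 CPM in CTRL libraries. LIRD 4 and LIRD 6 lay below the CTRL range and the other 6 LIRD libraries inside it. The log2 fold change was -0.11 (SE 0.09, FDR 0.705 by edgeR), and the interval of -0.28 to 0.06 held no change of the called size. Values were 0.06 for ccne1, -0.06 for ccne2 and 0.09 for ccna2. The kinase gene cdk2, at a log2 fold change of 0.14, resembled fen1: 4 LIRD libraries were above and 4 below the CTRL range of 9.19 to 18.4 CPM.

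Entry into mitosis depends on Cdk1 with the B cyclins. Levels of cdk1 were 13.6, 33.7 and 72.7 CPM in LIRD libraries, against 19.9, 27.5 and 42.2 CPM in CTRL libraries. LIRD 1, 2, 4 and 9 were above every control, LIRD 6 and LIRD 10 below every control, and LIRD 5 and LIRD 11 within the CTRL range. Its log2 fold change was 0.38 (SE 0.27, FDR 0.697 by edgeR), and 0.17 without LIRD 4. The cyclin genes had values of 0.07 for ccnb1 and 0.18 for ccnb2.

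The mitotic kinases and checkpoint genes (aurka and aurkb for the Aurora kinases, plk1 for Polo-like kinase, bub1 and bub1bb for the spindle checkpoint) had log2 fold changes between 0.04 and 0.21, all 5 above 0, or 3 of 5 with totals alone. The anaphase-promoting complex was represented by its activator cdc20, at 0.27, and by its ubiquitin-conjugating enzyme ube2c. Levels of ube2c were 6.54, 16.7 and 38.1 CPM in LIRD libraries, against 9.50, 12.9 and 20.7 CPM in CTRL libraries. Again LIRD 1, 2, 4 and 9 were above every control and LIRD 6 and LIRD 10 below every control. For ube2c the log2 fold change was 0.46 (SE 0.28, FDR 0.697 by edgeR), and 0.23 without LIRD 4.

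Among the spindle and chromosome genes, birc5a had the largest fold change of all members. It was measured at 2.23, 7.05 and 16.3 CPM in LIRD libraries, against 3.82, 5.21 and 9.32 CPM in CTRL libraries. LIRD 1, 2, 4 and 9 were above every control, and LIRD 6 and LIRD 10 below every control. The fold change of 1.42 had an interval of 0.912 to 2.22 (log2 0.51, SE 0.33, FDR 0.697 by edgeR), and without LIRD 4 the log2 value was 0.27.

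The marker of cycling cells mki67 did not follow that order of libraries. Its levels were 72.2, 103.0 and 115.4 CPM in LIRD libraries, against 68.2, 105.6 and 146.7 CPM in CTRL libraries, and all LIRD values lay within the CTRL range. LIRD 1, with the highest pcna level, had the lowest mki67 level of the LIRD group, and LIRD 5, with low pcna, was next to the highest. The log2 fold change was -0.13 (SE 0.14, FDR 0.756 by edgeR). Topoisomerase II alpha (top2a), which untangles sister chromatids, had 54.9, 90.1 and 113.0 CPM in LIRD libraries, against 62.6, 94.9 and 122.0 CPM in CTRL libraries. Only LIRD 10 fell outside the CTRL range, on its low side, and the log2 fold change was -0.04 (SE 0.14, FDR 0.928 by edgeR). The spindle genes kif11, tpx2 and nusap1 had values of 0.11, 0.08 and 0.01.

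Most members moved together from library to library within each condition. Among the mitotic members, mki67 included, every pair was positively correlated after subtraction of each condition mean (median Pearson r 0.88). Single libraries departed from this: mki67 was lowest of the LIRD libraries in LIRD 1, and ccnd1 was low in LIRD 4. Most members were above the CTRL median in both of these libraries. Like mki67, the mitotic members top2a, bub1 and nusap1 were lower in LIRD 1 and 2 than in LIRD 5 and 11. A level was computed for each library as the mean over members of log2 CPM minus the mean of that member over the 17 libraries. For the S-phase members it was 0.49 in LIRD 1, 0.38 in LIRD 2, 0.63 in LIRD 4, -0.43 in LIRD 5, -0.64 in LIRD 6, 0.35 in LIRD 9, -0.64 in LIRD 10 and -0.45 in LIRD 11. In the CTRL libraries it lay between -0.67 in CTRL 5 and 0.39 in CTRL 10, with a median of 0.09. The group means were -0.04 ± 0.55 in LIRD and 0.04 ± 0.32 in CTRL (SD, n = 8 and 9). For the mitotic members they were 0.05 ± 0.50 in LIRD and -0.04 ± 0.30 in CTRL, with LIRD 4 at 0.83 and LIRD 10 at -0.83.

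The same libraries ranked high or low for single members. LIRD 4 was the highest LIRD library for 30 of 42 members, and LIRD 10 or LIRD 6 was the lowest for 26 and 12 members. Among controls, CTRL 5 was lowest for 40 members and CTRL 10 highest for 22. The number of members above the CTRL median was 30 in LIRD 1, 24 in LIRD 2, 38 in LIRD 4, 31 in LIRD 9, 7 in LIRD 5, 6 in LIRD 11, 1 in LIRD 6 and 0 in LIRD 10. In controls it was 39 in CTRL 10 and 0 in both CTRL 4 and CTRL 5.

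**Figure D3:**
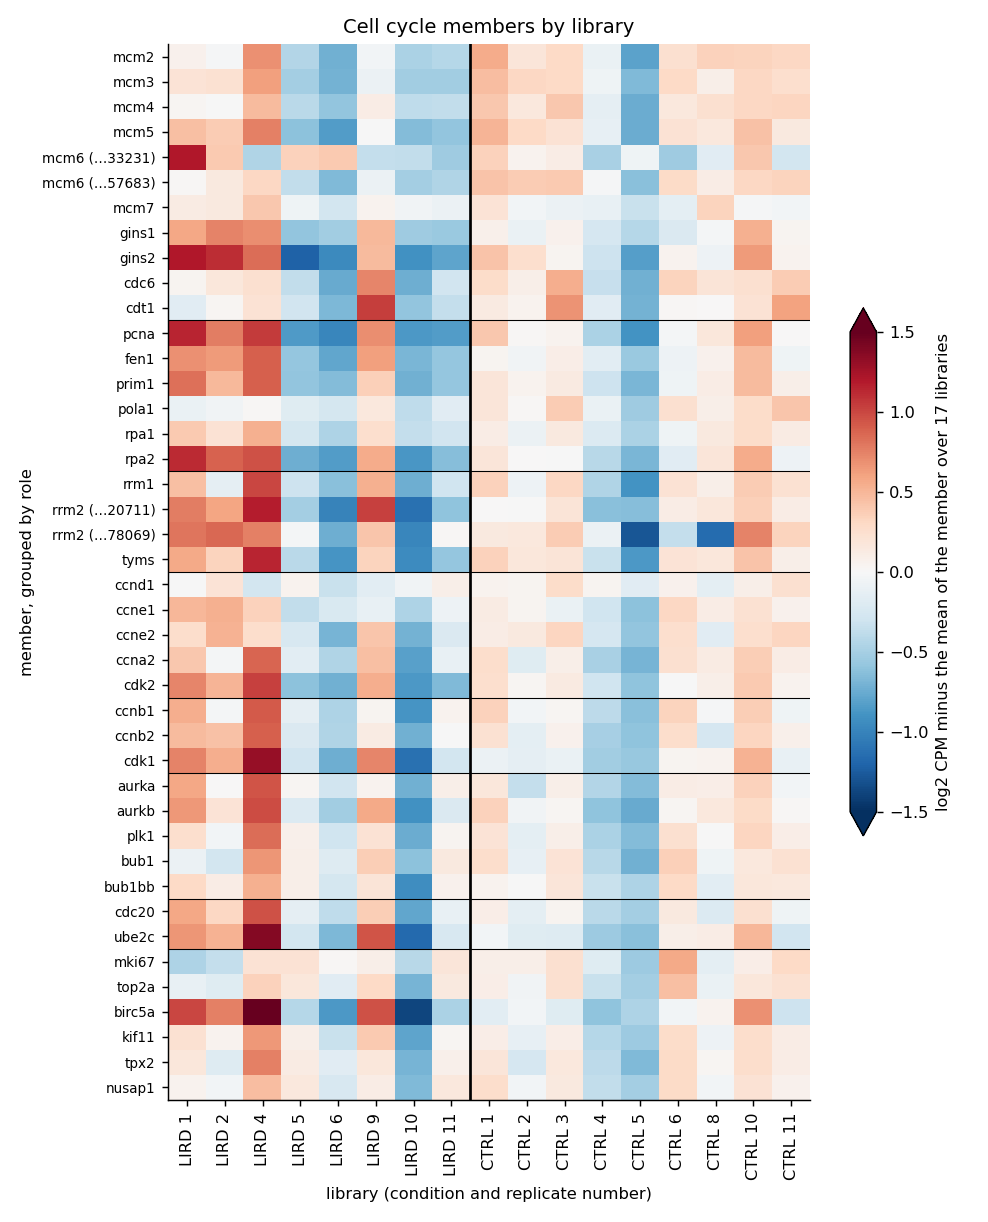
Each cell shows log2 CPM of a member (rows, grouped by role) in a library (columns, 8 LIRD left of 9 CTRL) minus the mean of that member over 17 libraries, red above and blue below that mean. Most rows are red in LIRD 1, 2, 4 and 9 and blue in LIRD 6 and LIRD 10, and CTRL 5 is blue in nearly every row.

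The spread between LIRD libraries was larger than between CTRL libraries for most members, as it was for most genes. The SD of log2 CPM was larger in LIRD for 39 of 42 members (92.9%), against 84.9% of all genes tested, and the median ratio of the SDs was 1.54 for members and 1.61 for all genes. At least 6 LIRD libraries lay outside the CTRL range for 9 members (21.4%), against 13.2% of all genes, and all 8 did for 2 members, fen1 and cdk2, against 1.88% of all genes. For 27 members (64.3%) LIRD libraries lay both above and below the CTRL range, against 49.5% of all genes.

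Among the LIRD libraries, some other measures moved with these levels. The TMM normalization factor was 0.84 in LIRD 1, 0.94 in LIRD 2, 0.82 in LIRD 4, 1.05 in LIRD 5, 1.16 in LIRD 6, 0.88 in LIRD 9, 1.06 in LIRD 10 and 1.05 in LIRD 11, and 0.91 to 1.14 in CTRL libraries. Ribosomal protein genes took 13.6%, 10.5%, 9.39%, 5.12%, 4.17%, 8.30%, 5.14% and 5.03% of the counts in LIRD 1, 2, 4, 5, 6, 9, 10 and 11, and 4.94% to 8.91% in CTRL libraries. The LIRD libraries with the most members above the CTRL median were therefore those with the lowest factors and the largest ribosomal protein shares. Controls followed this order less closely. CTRL 10 (factor 0.91, ribosomal share 8.91%) had 39 members above the CTRL median, and CTRL 4 (1.11, 5.59%) had 0. But CTRL 6 (1.14, 4.94%) had 26, and CTRL 8 (0.92, 8.37%) had 16. In the same order of LIRD libraries, 4 liver markers summed to 8603, 4194, 6150, 3385, 2564, 4960, 2445 and 3244 CPM, against 2022 to 4225 CPM in CTRL libraries. Likewise 5 skin markers summed to 18080, 14790, 11420, 8201, 5995, 13320, 8945 and 7979 CPM, against 7817 to 13650 CPM in CTRL libraries. Progenitor and ciliary marginal zone markers, members left out, summed to 784, 908, 750, 1094, 1170, 1078, 1083 and 1092 CPM (818 to 1143 in CTRL). Amacrine markers summed to 935, 1009, 924, 1201, 1285, 1235, 1506 and 1207 CPM (1152 to 1403 in CTRL). Both were thus lowest in LIRD 1, 2 and 4, but not low in LIRD 9. Other retinal lists did not all follow this order. Cone markers ran the other way, with a higher sum in LIRD 1, 2, 4 and 9 than in any other LIRD library. All 4 liver markers and 5 of 6 red blood cell rows had an unadjusted p under 0.05 by edgeR toward higher levels in LIRD. So did 3 of 6 microglia and macrophage rows, against 4.9% of all genes tested. No row of these lists was called, and none was at 0 in every library. The normalization factor enters each level directly, because CPM values used library sizes scaled by it. The part of the other measures in the members' levels was not tested. Scaled by total counts alone, the SD of the level over all members was 0.33 in LIRD and 0.27 in CTRL, against 0.50 in LIRD and 0.30 in CTRL with the normalization factors.

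S-phase and mitotic members were compared within each library, as the S-phase level minus the mitotic level. The difference averaged -0.09 ± 0.27 in LIRD and 0.08 ± 0.13 in CTRL (SD, n = 8 and 9) and the groups overlapped. It was -0.43 in LIRD 11, -0.39 in LIRD 5, -0.27 in LIRD 6 and -0.21 in LIRD 4, below the lowest control, CTRL 6 at -0.20. The other LIRD libraries lay between -0.01 in LIRD 9 and 0.26 in LIRD 2, and LIRD 2 was above the highest control at 0.20. In LIRD 5 and LIRD 11, the near-identical pair, the mitotic level was near 0 while the S-phase level was low. In LIRD 4 both levels were high, with the mitotic level above. No p is given for these levels, because the members were chosen with results of these data known. Over the 17 libraries, the median Pearson r of log2 CPM between pairs of members, given as a description, was 0.76 within the S-phase members, 0.87 within the mitotic members and 0.68 between the sets. The points of each pair share libraries and normalization factors.

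**Figure D4:**
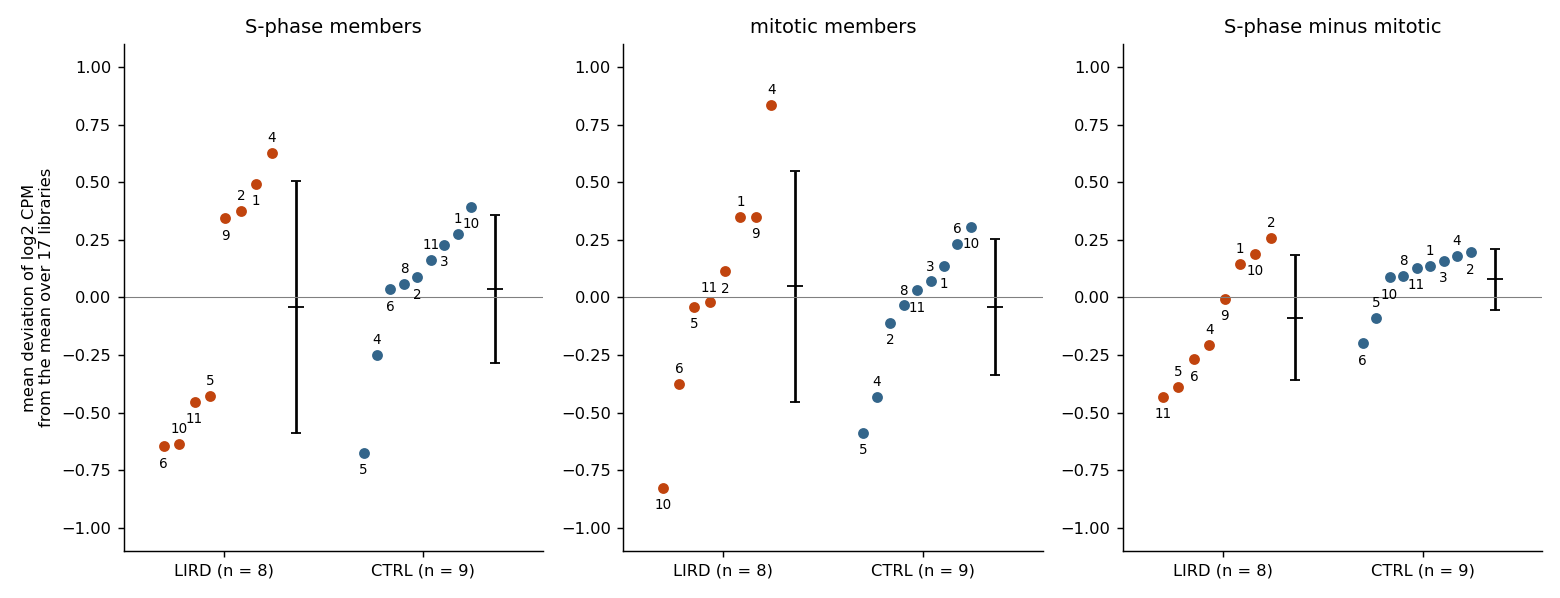
The mean deviation of log2 CPM from the mean over 17 libraries is plotted for the S-phase members, the mitotic members and their difference, with 1 numbered point for each LIRD (orange) and CTRL (blue) library and the mean and SD as bars. The LIRD libraries range from -0.64 to 0.63 for the S-phase members, and 4 of them lie below every control for the difference.

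The contrast was also fitted within each library series. In the first series (LIRD 1 and 2 against CTRL 1 and 2) 10 of 42 members passed the test (23.8%), all higher in LIRD, against 17.2% of all genes tested in that series, 10.9% higher and 6.34% lower. These were pcna (log2 fold change 0.76, SE 0.22, FDR 0.0454 by edgeR), both rrm2 rows (0.70 and 0.70), gins1 (0.69), gins2 (0.83), fen1 (0.69), rpa2 (0.94), cdk1 (0.77), ube2c (0.72) and birc5a (0.99). In CPM, birc5a was measured at 11.6 and 9.80 in LIRD 1 and 2, against 5.21 and 5.65 in CTRL 1 and 2. With 2 libraries in each group, these tests rest on the spread within 2 pairs. Under the fold threshold, 2 more members had an FDR under 0.05, prim1 at 0.56 (FDR 0.0466 by edgeR) and mki67 at -0.48 (FDR 0.0390 by edgeR). Levels of mki67 were 72.2 and 77.6 CPM in LIRD 1 and 2, against 105.6 and 105.2 CPM in CTRL 1 and 2.

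In the second series 0 of 42 members passed, against 0.0178% of all genes tested there, and 1, mcm6 (ENSDARG00000057683), had an unadjusted p under 0.05, against 4.38% of all genes. The value of pcna was -0.02 (SE 0.36), that of birc5a 0.31 (SE 0.40) and that of mcm6 (ENSDARG00000057683) -0.40 (SE 0.18, FDR 1.0 by edgeR). The median over all members was 0.21 in the first series and -0.01 in the second, and 16 members had opposite signs. A test of the difference itself, as a term for series by condition, gave 0 members with an unadjusted p under 0.05, against 16.8% of all genes, and a smallest member FDR of 0.358. For pcna the first series exceeded the second by 0.76 (SE 0.70).

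**Figure D5:**
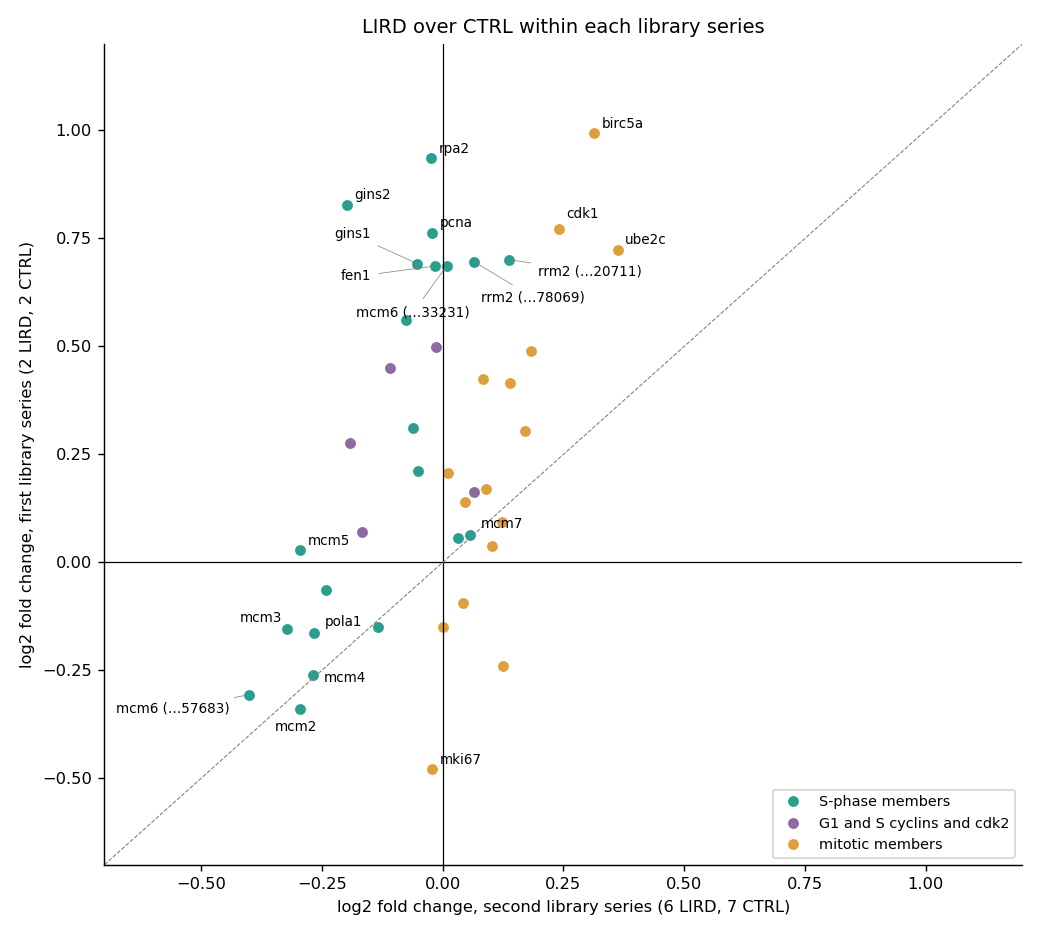
The log2 fold change of each member, LIRD over CTRL, in the first library series (vertical axis, 2 LIRD and 2 CTRL libraries) is plotted against that in the second (horizontal axis, 6 LIRD and 7 CTRL libraries), with the dashed line marking equal values. Members such as pcna, gins2 and rpa2 lie between 0.76 and 0.94 on the vertical axis and near or below 0 on the horizontal axis, and mcm2, mcm3, mcm4 and mcm6 (ENSDARG00000057683) lie below 0 on both.

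The rest of the pathway was read from a list of 105 other cell cycle genes (origin recognition, other fork and nucleotide genes, E2F and pocket proteins, CDK inhibitors, checkpoint, kinetochore, condensin and cytokinesis genes), of which 101 matched 103 rows, all tested. None of the 103 passed the test by edgeR or DESeq2. By edgeR 7 had an unadjusted p under 0.05 (6.80%), 1 higher and 6 lower in LIRD. Of all genes tested 7.64% had such a p, 4.9% higher and 2.74% lower. The median was 0.01. The lowest p belonged to cdkn1a, which encodes the CDK inhibitor p21. It was measured at 4.22, 5.99 and 16.7 CPM in LIRD libraries, against 6.40, 13.1 and 23.3 CPM in CTRL libraries. The groups overlapped, with 7 of 8 LIRD libraries below the CTRL median, and the log2 fold change was -0.79 (SE 0.28, FDR 0.491 by edgeR).

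Next came uhrf1, which recruits the maintenance DNA methyltransferase to new DNA, at -0.31 (SE 0.11), and rfc1, the large subunit of the clamp loader, at -0.25 (SE 0.10), with 8 of 8 LIRD libraries below the CTRL median. The smallest p-values above 0 belonged to cdkn3 at 0.40 (SE 0.19, unadjusted p = 0.0495 by edgeR), a cdkn1b row (ENSDARG00000054271) at 0.19 (SE 0.09, unadjusted p = 0.0556 by edgeR) and cdkn2c at 0.26 (SE 0.14, unadjusted p = 0.0745 by edgeR). Their FDR lay between 0.652 and 0.681 by edgeR.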

How the data were processed

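Poly(A) RNA libraries of zebrafish retinae were sequenced on an Illumina instrument. The authors trimmed reads, aligned them to GRCz11 and counted them on genes; the deposited table holds raw counts per gene with no normalization. The submitters' processing notes name Trimmomatic 0.39, STAR 2.7.9a, featureCounts of Subread 2.0.1, DESeq2 1.30.1 and R 4.0, in no stated order. Symbols were matched to 23499 of 25281 identifiers (93.0%). Between rows that share a name, such as those named rrm2 or mcm6, reads may be split. How alike their sequences are was not checked.

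Counts were filtered with filterByExpr (22503 genes), scaled by TMM and tested with the robust quasi-likelihood test of edgeR 4.0.16 in R 4.3.3, with 8 LIRD and 9 CTRL libraries and no covariate. P-values were adjusted over all genes (FDR), and a call needed an FDR under 0.05 and a fold change over 1.5 in either direction (the study's threshold). CPM values used TMM-scaled library sizes, log2 CPM a prior count of 2, and the SE is the absolute log2 fold change divided by the square root of F. Intervals are the log2 fold change plus or minus 1.96 SE. This multiplier makes no allowance for the small number of libraries, so the intervals are somewhat narrower than the test implies. Library totals of 70932504 to 150347385 leave variation between libraries, not counting error, as the limit on precision for most members. Scripts were tested on simulated data. Tables and plots used Python 3.11.15, pandas 2.3.3, numpy 2.4.6 and matplotlib 3.10.9.

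The members and lists were chosen with earlier results of these data known. Members described in full are pcna, mcm2, rrm2, ccnd1, cdk1, mki67 and top2a, and the 6 with the smallest p; of the other cell cycle genes, the 3 with the smallest p in each direction. Levels are not compared between genes, since transcript lengths were not used.

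The alternatives were DESeq2 1.42.0, limma-voom (limma 3.58.1), upper-quartile normalization, other count filters, a log2 fold threshold of 1 or none, the library series as a covariate or alone, the replicate number as a block, the near-identical libraries added up and each library left out. The interaction of series and condition, scaling by totals alone and the unblocked fit to the libraries of the block were chosen after seeing the data. A search of promoters for motifs was planned and was not done here, because no promoter sequence was used.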

Additional observations from a re-analysis of the deposited data

Results flagged for a closer look

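In each of 90 groups of values the highest and lowest library were compared with their nearest neighbour by Dixon's criterion, which chance alone meets in about 1 in 20 groups. The 6 values that met it were all high. In LIRD libraries they were mcm2 at 111.2 CPM in LIRD 4 (group median 59.3), cdt1 at 14.4 CPM in LIRD 9 (median 5.97) and the weakly expressed mcm6 row ENSDARG00000033231 at 0.800 CPM in LIRD 1 (median 0.359). In CTRL libraries they were gins1 at 8.46 CPM (median 5.73), cdk1 at 42.2 CPM (median 27.5) and birc5a at 9.32 CPM (median 5.21), all in CTRL 10.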

How the results depend on the processing

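Genes called over the whole table numbered 9. They were 78 by DESeq2, 15 by limma-voom, 14 with at least 10 counts in every library, 17 with the library series as a covariate, 5 with the near-identical libraries added up, 4 in the second series alone and 3891 in the first. Leaving out each library gave 7 to 39, the 39 without LIRD 10. Members called were 0 under every setting run but the first series alone (10 of 42). Other cell cycle genes called were 0 but for 24 of 103 there, in a fit that called 17.2% of all genes tested. Members with an unadjusted p under 0.05 numbered 2, and were 1 by limma-voom, 1 in the second series, 16 in the first (where 39.1% of all genes had such a p), 0 with the near-identical libraries added up, 5 with scaling by totals alone and 0 to 5 without each library. No pairing by replicate number was detected: same-numbered libraries had correlations of -0.56 to 0.42 over 7 numbers, and 1 of 7 LIRD libraries correlated best with its own number. These correlations over all genes also carry variation common to many libraries, so they cannot exclude a pairing. The replicate block gave 0 calls over all genes and 0 members with an unadjusted p under 0.05, and the same libraries without the block gave 4 and 0. The S-phase median of 0.04 lay between -0.05 and 0.12 without each library and was -0.03 by limma-voom and -0.07 both under the block and with totals alone. The mitotic median of 0.11 lay between -0.01 (without LIRD 4) and 0.20. The cause of these differences was not tested. Of the 10 members called in the first series, pcna, gins1, gins2, fen1 and rpa2 were below 0 in the second (-0.02, -0.05, -0.20, -0.02 and -0.02).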
